A study of Homo sapiens with 12 samples.

Results

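The genes described here are STAT3 and 8 genes known as its early targets and feedback regulators: SOCS3, SOCS1, CISH, JUNB, CEBPD, BCL3, PIM1 and IL4R. They were taken by name, and all 9 were found among the 19251 genes listed and among the 17616 that passed a filter on low values (a value of at least 10 in at least 3 libraries). RNA sequencing covered 12 libraries of 2 lines of human ovarian cancer cells, CAOV3, labelled as high grade serous, and TOV21G, labelled as clear cell, both with the genotype WT. In each line 3 libraries came from untreated cells and 3 from cells given 10% ovarian cancer ascites (150 µL) for 16 h. All cultures started from 250000 cells in 1.5 mL of DMEM with 10% FBS, so serum was present in the controls as well, and no vehicle is described for them. Ascites is the fluid that gathers in the abdomen in this disease; its donors and whether cells were removed from it are not given in the sources used here. The labels do not say that replicates were separate cultures, so the p-values measure only the spread between these libraries. Each comparison of lines is a comparison of these 2 lines alone.

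STAT3 is a latent transcription factor. Cytokines of the IL-6 family bind receptors that share the gp130 chain, encoded by IL6ST, and the attached JAK kinases phosphorylate STAT3, which moves to the nucleus and switches on target genes. Several of those targets turn the signal down again: SOCS3 and SOCS1 bind and block receptor and JAK complexes, and CISH competes for phosphorylated sites on receptors, chiefly of the STAT5 pathway. Others carry the response on, as transcription factors (JUNB, CEBPD and STAT3 itself), as a nuclear cofactor of NF-kB (BCL3), as a survival kinase (PIM1) or as a receptor for further cytokines (IL4R). Ascites of ovarian cancer is known to contain IL-6 family cytokines.

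Library depth ran from 26697609 to 34491304 reads, recovered from the deposited values. Values below are normalised read counts, the reads of a gene divided by the size factor of the library. Untreated CAOV3 cells had the higher epithelial marker sum (EPCAM, KRT8, KRT18, KRT19, CDH1 and CLDN4), 135500 to 136800 against 11060 to 12460 in untreated TOV21G cells. PAX8 and WT1, which usually mark serous carcinoma, were low in untreated CAOV3 cells (19.1 ± 1.18 and 4.59 ± 2.11) and high in untreated TOV21G cells (7032 ± 259 and 228 ± 7.85), which goes against the serous label of CAOV3. Of 12 leukocyte markers, 3 were analysed here (CD14, LYZ and ITGAM), and their summed value was 123 to 144 in CAOV3 controls and 104 to 135 after ascites; the ranges overlapped.

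With ascites, 5 of the 9 genes rose in CAOV3 cells and 0 in TOV21G cells. In CAOV3 these were SOCS3, CEBPD, JUNB, STAT3 and IL4R, and SOCS3 moved most, to 2.94 times its control level. Over all tested genes, limma called 1.73% in CAOV3 in either direction and 0.636% as higher, at an adjusted p below 0.05. In TOV21G 0.409% were called, and of the 9 genes 0 were called; 0 reached an unadjusted p below 0.05 there, and edgeR and DESeq2 also called 0. The median log2 fold change of the 9 genes was 0.46 in CAOV3, where that of all tested genes was -0.0021, and 0.0085 in TOV21G, where that of all tested genes was -0.018.

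**Figure D1:**
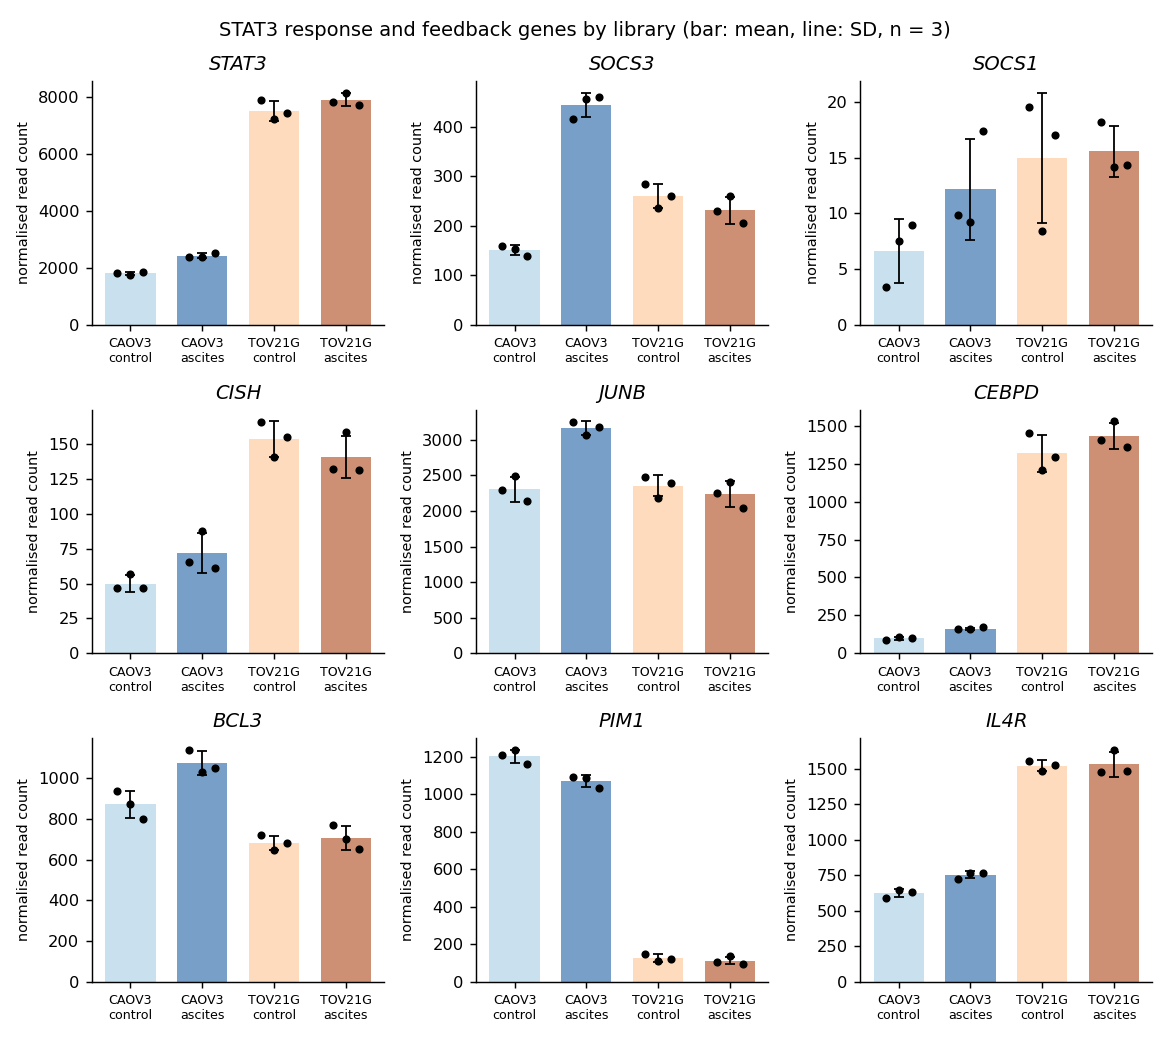
Normalised read count (vertical axes, from 0) of each of the 9 genes in the 4 groups of 3 libraries; points are libraries, bars group means and lines the SD. In CAOV3 SOCS3 runs from 139.5 to 159 in the controls and from 416 to 461 after ascites, while in TOV21G the untreated and treated points overlap for every gene.

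In CAOV3 the treated and untreated libraries did not overlap for any of the 9 genes: 8 were higher in all 3 ascites libraries and PIM1 was lower in all 3. Among all tested genes 24.2% were without overlap in either direction and 11.4% in the upward direction. In TOV21G 0 of the 9 genes were without overlap, against 11.1% of all tested genes. In these bulk libraries a change in the share of cells of a type and a change in RNA per cell cannot be told apart.

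SOCS3 (ENSG00000184557), the best known feedback inhibitor of gp130 signalling, lies at 78356778 to 78360077 on the minus strand of chromosome 17 (GRCh38, GENCODE 29, as for all gene positions here). Its values were 159, 154 and 139.5 in the untreated CAOV3 libraries and 416, 456 and 461 in the treated ones. Every treated library was thus far above the highest control. The log2 fold change was 1.55 (SE 0.10, 95% interval 1.33 to 1.77, limma adjusted p 3.78e-06), which placed it 20th of the 17616 tested genes by size of rise. TOV21G libraries read 285, 237 and 260.2 without ascites and 229, 260.2 and 206 with it. Those groups overlapped, and the change was -0.17 on the log2 scale (95% interval -0.39 to 0.048, limma adjusted p 0.63). Treated CAOV3 cells, at 444 ± 25.0 (SD, n = 3), were above both TOV21G groups, at 261 ± 24.1 and 232 ± 27.3, whereas untreated CAOV3 cells, at 151 ± 10.0, were below them.

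SOCS1 (ENSG00000185338, chromosome 16, 11254405 to 11256200, minus strand), a JAK inhibitor induced mainly by interferons, was close to the limit of counting. Its libraries held 3, 7 and 9 reads in untreated and 9, 9 and 17 in treated CAOV3 cells, and 18, 8 and 19 in untreated and 22, 16 and 16 in treated TOV21G cells. As normalised counts the CAOV3 values were 3.41, 7.53 and 8.91 without ascites and 9.85, 9.20 and 17.4 with it. They did not overlap, but the log2 fold change of 0.82 had a wide interval (0.0018 to 1.63) and did not pass the test (limma adjusted p 0.38). In TOV21G it was 0.12 (-0.69 to 0.94, limma adjusted p 0.96). At this depth a change of the size of that of JUNB or STAT3 in CAOV3 lies within the interval for SOCS1 in either line.

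CISH (ENSG00000114737, chromosome 3, 50606490 to 50611831, minus strand), the feedback inhibitor tied most to STAT5, showed values of 46.5, 57.0 and 46.5 in untreated and 65.6, 87.9 and 61.4 in treated CAOV3 libraries. All treated libraries lay above the controls, with the second one standing well above the other two. The log2 fold change of 0.50 (SE 0.16, 95% interval 0.16 to 0.84) did not pass the test after adjustment (limma adjusted p 0.17). In TOV21G CISH had 166, 140.5 and 155 without ascites and 132.5, 158 and 131.5 with it, overlapping ranges with a log2 difference of -0.13 (-0.47 to 0.21, limma adjusted p 0.82). The strand setting of the read counting is not given in the sources used here. Without strand, reads from a gene on the opposite strand cannot be told apart where genes overlap, which applies to CISH (MAPKAPK3), SOCS1 (RMI2), JUNB (HOOK2) and IL4R (AC106739.1).

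The stretches upstream of CISH and SOCS3 are shown because CISH was the sole gene of the 9 with STAT-type motifs in its promoter window, and SOCS3 had the largest change. RefSeq windows (GRCh38.p14, 250 bases before to 50 after a start site) were found for 8 of the 9 genes, 9 windows in all, since SOCS3 has 2 start sites there. Searched were TTCNNNGAA, the general spacing of STAT sites, and the narrower TTCCNGGAA, every match of which is also a match of the first; both read the same on the 2 strands. Capitals mark matches of the first motif. The sequences run 5′ to 3′ on the minus strand and end at the base before the RefSeq start, at chr3:50611775-50612024 for CISH and chr17:78360926-78361175 for the more upstream start of SOCS3.
CISH: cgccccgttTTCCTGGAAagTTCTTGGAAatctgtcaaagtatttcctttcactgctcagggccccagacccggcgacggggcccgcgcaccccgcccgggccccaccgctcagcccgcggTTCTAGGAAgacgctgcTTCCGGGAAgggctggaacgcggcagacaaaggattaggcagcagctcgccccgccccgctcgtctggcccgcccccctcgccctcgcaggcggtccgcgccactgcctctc
SOCS3: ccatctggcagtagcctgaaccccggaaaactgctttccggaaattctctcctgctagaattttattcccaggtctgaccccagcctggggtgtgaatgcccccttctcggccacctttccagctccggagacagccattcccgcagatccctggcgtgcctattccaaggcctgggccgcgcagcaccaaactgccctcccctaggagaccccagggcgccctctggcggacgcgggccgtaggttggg
The CISH window held 4 matches, beginning at -241, -230, -129 and -112 from the start site, and 2 of them (TTCCTGGAA and TTCCGGGAA) also match the narrower motif. Over all 35116 windows of that length, 7.66% held the first motif and 1.15% the second. None of the windows of STAT3, SOCS3, JUNB and IL4R, the genes that rose and had one, held either motif. The GENCODE start of SOCS3 falls in neither of its windows: the start used above lies 848 bases further upstream, so the stretch around the GENCODE start was not searched. The GENCODE starts of IL4R, BCL3 and PIM1 also lie outside their windows. No window for CEBPD was used here.

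The transcription factor genes rose together in CAOV3. STAT3 (ENSG00000168610, chromosome 17, 42313324 to 42388568, minus strand), which is among its own targets, read 1809, 1757 and 1852 in untreated and 2377, 2389 and 2525 in treated libraries. The 2 ranges were far apart relative to their spread, and the log2 fold change was 0.43 (SE 0.043, 95% interval 0.34 to 0.52, limma adjusted p 0.000175). TOV21G already stood at 7912, 7221 and 7464 and had 7848, 8165 and 7726 with ascites, ranges that overlapped. Its log2 change was 0.072, and the interval of -0.021 to 0.16 lies below that of CAOV3.

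JUNB (ENSG00000171223, chromosome 19, 12791496 to 12793315, plus strand), an AP-1 subunit, had values of 2289, 2486 and 2137 in CAOV3 controls and 3257, 3065 and 3179 after ascites. The lowest treated library was well above the highest control. The log2 fold change was 0.46 (SE 0.068, 95% interval 0.31 to 0.61, limma adjusted p 0.00318). TOV21G libraries had 2476, 2187 and 2400 without and 2254, 2410 and 2045 with ascites, with overlap and a log2 change of -0.076 (-0.22 to 0.072, limma adjusted p 0.74). CEBPD (ENSG00000221869, chromosome 8, 47736909 to 47739086, minus strand), a C/EBP factor of the acute-phase response, had the second largest rise of the 5. It read 89.7, 109 and 99.96 in untreated and 159, 160.5 and 171 in treated CAOV3 cells, a log2 fold change of 0.71 (SE 0.085, 95% interval 0.53 to 0.90, limma adjusted p 0.00063). TOV21G had 1452, 1211 and 1296 untreated and 1404, 1531 and 1363 treated, with overlap and a log2 change of 0.12 (-0.065 to 0.31, limma adjusted p 0.67).

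BCL3 (ENSG00000069399, chromosome 19, 44747705 to 44760044, plus strand), the atypical IkB protein that works with NF-kB in the nucleus, was near the threshold in CAOV3. Its values were 939, 876 and 802 in controls and 1142, 1032 and 1051 after ascites, without overlap. The log2 fold change of 0.30 (SE 0.074, 95% interval 0.14 to 0.46) had a limma adjusted p of 0.065; edgeR and DESeq2 on recovered reads gave adjusted p-values of 0.020 and 0.0076. In TOV21G it ranged from 648 to 720 untreated and from 652 to 771 treated, a log2 change of 0.051 (-0.11 to 0.21). The small RNA gene MIR8085 lies within BCL3 on the same strand.

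PIM1 (ENSG00000137193, chromosome 6, 37170203 to 37175426, plus strand), a serine/threonine kinase that promotes survival, did not follow the others. It read 1208, 1235 and 1163 in untreated and 1091, 1085 and 1035 in treated CAOV3 cells. All treated values were the lower ones, by a small margin. The log2 difference of -0.17 (95% interval -0.43 to 0.099) did not pass the test (limma adjusted p 0.63). With the 6 CAOV3 libraries fitted alone it was nearer the threshold and also not called (limma adjusted p 0.077). TOV21G values were 148.5, 109 and 123 untreated and 108, 136 and 95.8 treated, also a log2 difference of -0.17 (-0.43 to 0.0997, limma adjusted p 0.68). IL4R (ENSG00000077238, chromosome 16, 27313668 to 27364778, plus strand), the receptor alpha chain for IL-4 and IL-13, rose in CAOV3 from 592, 649 and 630.4 to 727.5, 769 and 767. That is a log2 fold change of 0.27 (SE 0.052, 95% interval 0.16 to 0.39, limma adjusted p 0.0164). This call was lost when CAOV3 control 1, control 3, ascites 2 or ascites 3 was left out (adjusted p 0.0507 to 0.0811) and when the 6 CAOV3 libraries were fitted alone (0.0543). TOV21G values of IL4R spanned 1487 to 1559 untreated and 1480 to 1637 treated, a log2 change of 0.0085 (-0.10 to 0.12).

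**Figure D2:**
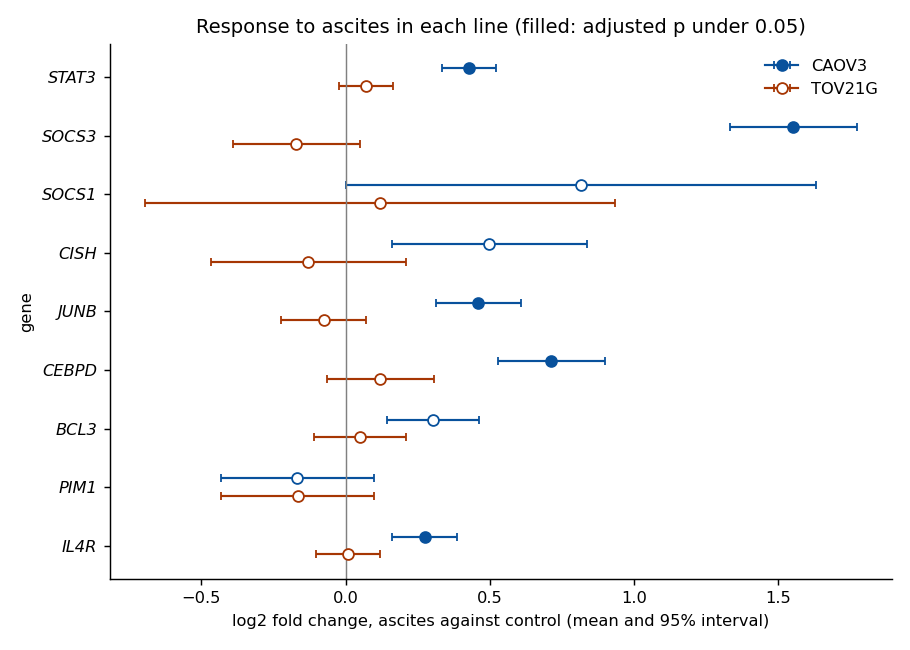
Log2 fold change, ascites against control, with its 95% interval (horizontal axis) for the 9 genes in CAOV3 (blue) and TOV21G (brown); filled points have an adjusted p below 0.05. Filled points appear at STAT3, SOCS3, JUNB, CEBPD and IL4R in CAOV3 only, and all TOV21G intervals include 0.

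The difference between the responses of the lines was tested as an interaction in the same fit. Limma called 0.545% of all tested genes for it, and 0.307% as lower in TOV21G; of the 9 genes 3 were called, all lower in TOV21G. SOCS3 differed most, by -1.73 on the log2 scale (SE 0.14, adjusted p 8.37e-05), followed by JUNB (-0.54, SE 0.097, adjusted p 0.0268) and STAT3 (-0.36, SE 0.061, adjusted p 0.021). CEBPD, at -0.59 (SE 0.12, 95% interval -0.86 to -0.33), just missed the threshold (adjusted p 0.0513), although its estimate was larger than that of JUNB. For IL4R the difference was -0.27 (adjusted p 0.19), for BCL3 -0.25 (0.39), for CISH -0.63 (0.31) and for SOCS1 -0.70 (0.60). PIM1 showed a difference of 0.00093 (adjusted p 0.999). The SOCS3 call was kept in each of the 12 fits that left out 1 library. The STAT3 call was kept in 5 of these fits, those without CAOV3 control 3, CAOV3 ascites 2, TOV21G control 1, TOV21G control 2 or TOV21G ascites 2, and in the other fits its adjusted p was 0.0551 to 0.0757. The JUNB call was kept in 3, those without CAOV3 control 2, TOV21G control 2 or TOV21G ascites 2, and otherwise its adjusted p was 0.0551 to 0.0945.

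Before any ascites the lines differed at most of these genes. TOV21G controls were higher than CAOV3 controls for STAT3, SOCS3, SOCS1, CISH, CEBPD and IL4R, and lower for BCL3 and PIM1, by limma at an adjusted p below 0.05. That is 8 of 9, where 82.2% of all tested genes were called: 40.8% as higher and 41.4% as lower in TOV21G. The lines thus differ so widely that the count of 8 is no more than the background gives. The sizes are of more use. CEBPD was 13.2 times as high in TOV21G (1320 ± 123 against 99.4 ± 9.50), a log2 difference of 3.72, and PIM1 was at 0.106 times its CAOV3 level (127 ± 20.02 against 1202 ± 36.3), a log2 difference of -3.25. STAT3 was higher by 2.06 on the log2 scale (7532 ± 350.2 against 1806 ± 47.7), CISH by 1.61 (154 ± 12.7 against 50.02 ± 6.05), IL4R by 1.29 (1524 ± 36.1 against 624 ± 28.7) and SOCS3 by 0.78 (261 ± 24.1 against 151 ± 10.0). BCL3 was lower by a log2 difference of -0.35 (683 ± 36.0 against 872 ± 68.5, limma adjusted p 0.000605). SOCS1 passed the test (log2 difference 1.07, limma adjusted p 0.0177), but its groups overlapped, and without CAOV3 control 1, TOV21G control 1 or TOV21G control 3 it did not pass (0.0611 to 0.0915). JUNB did not differ beyond its spread, 2304 ± 175 in CAOV3 and 2354 ± 150 in TOV21G, with a log2 difference of 0.032 and an interval of -0.12 to 0.18 (limma adjusted p 0.67).

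**Figure D3:**
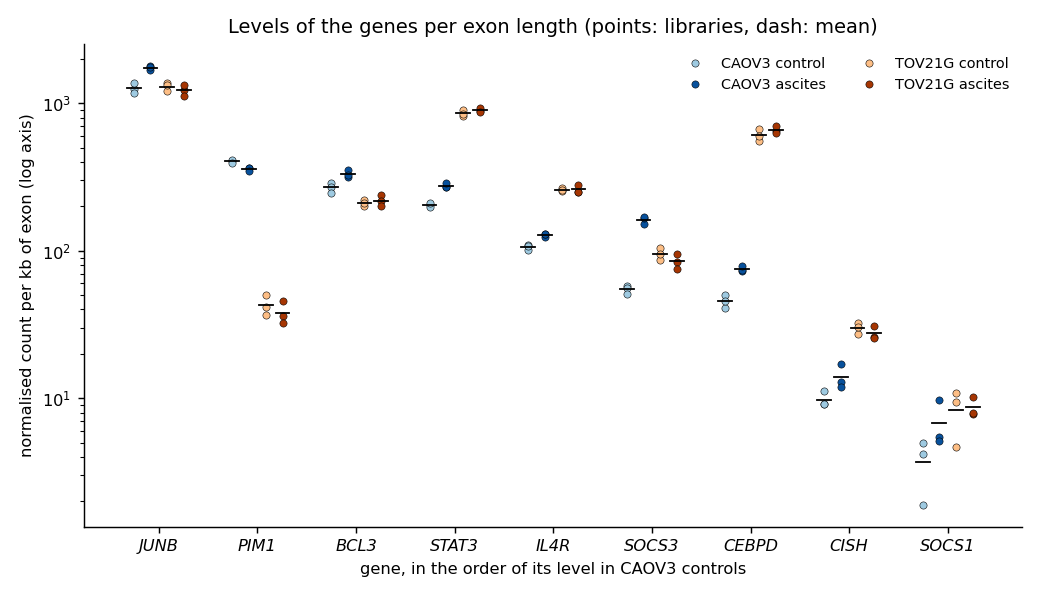
Normalised count per kb of exon (vertical log axis) of the 9 genes, ordered by their level in CAOV3 controls; points are libraries and dashes group means. JUNB leads in all 4 groups, PIM1 drops from second in CAOV3 to seventh in TOV21G, and CEBPD moves from seventh to the third place.

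Levels of different genes were compared as normalised counts per kb of exon. In CAOV3 controls the order was JUNB (1266), PIM1 (404), BCL3 (269), STAT3 (205), IL4R (106), SOCS3 (55.1), CEBPD (45.7), CISH (9.79) and SOCS1 (3.68), and no neighbours overlapped. With ascites, SOCS3 rose to 162.5 per kb and passed IL4R (128), and PIM1 (359.5) and BCL3 (331.5) came to overlap. In TOV21G controls the order was JUNB (1294), STAT3 (855), CEBPD (606), IL4R (258.5), BCL3 (210.5), SOCS3 (95.4), PIM1 (42.6), CISH (30.1) and SOCS1 (8.34). Ascites left that order as it was, and no neighbours overlapped in either TOV21G group.

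Within groups, the replicates of TOV21G moved together at these genes. Among TOV21G controls, replicate 1 was the highest for 9 of 9 genes and replicate 2 the lowest for 9 of 9, where over all tested genes replicate 1 was highest at 49.0% and replicate 2 lowest at 45.8%. Among treated TOV21G libraries, replicate 2 was highest for 7 of 9 (48.5% of all tested genes) and replicate 3 lowest for 7 of 9 (44.4%). The nuclear RNA KCNQ1OT1 varied in the same libraries, at 95.4, 656 and 234 in the controls and 731, 234.5 and 1511 after ascites, and was 614 to 813 in CAOV3. The mitochondrial share of the values was 2.18%, 1.77% and 2.35% in TOV21G controls and 1.61%, 2.71% and 1.49% after ascites. The libraries with the lowest KCNQ1OT1 in each TOV21G group were thus those in which most of the 9 genes were highest, and the part of this spread in the TOV21G results was tested only by leaving libraries out. With TOV21G control 1 and ascites 2 left out, or with control 2 and ascites 3 left out, 0 of the 9 genes were called in TOV21G and the same count of 3 for the difference between lines.

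**Figure D4:**
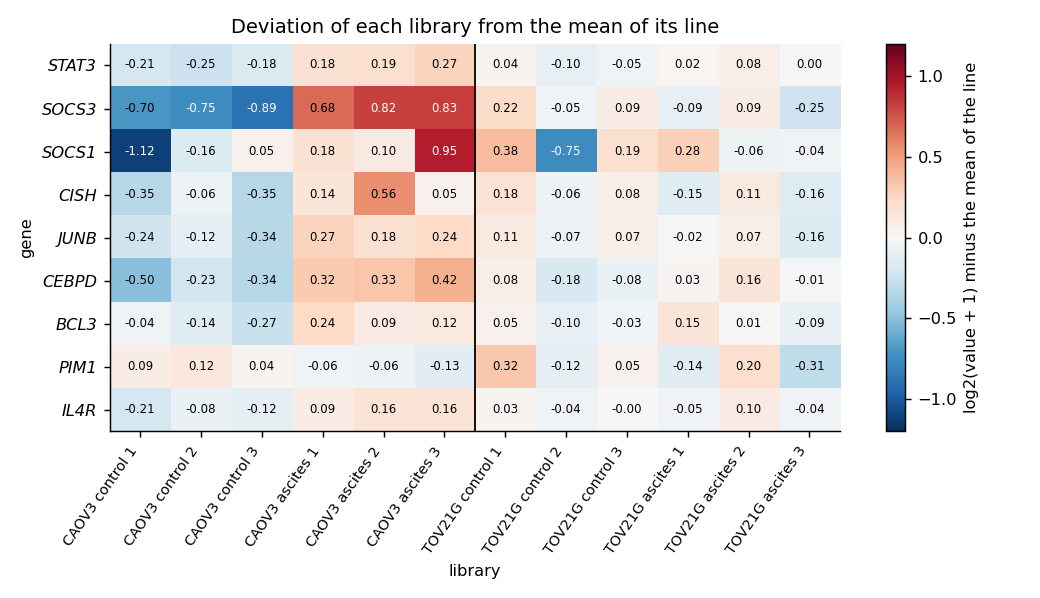
Deviation of log2(value + 1) from the mean of the line for each of the 9 genes (vertical axis) in each library (horizontal axis); red is above and blue below the mean, on a scale of log2 units. The 3 untreated and 3 treated CAOV3 libraries separate for every gene, while in TOV21G the colours follow single libraries, with control 1 high and control 2 low.

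Upstream of these genes, IL-6 family cytokines were looked at first, and receptor chains and JAK kinases after them. Of 7 tested IL-6 family cytokines, 0 were called in either line, where 1.73% of all tested genes were in CAOV3 and 0.409% in TOV21G. At such shares 0 of 7 is no fewer than the background gives. The median log2 fold change of the 7 was 0.17 in CAOV3 and -0.025 in TOV21G. IL6 had 0 reads in the 3 CAOV3 controls and 524 ± 41.9 in TOV21G controls. With ascites it was at 840.3 ± 14.5 in TOV21G, a log2 difference of 0.68 that was not called (limma adjusted p 0.54). These TOV21G groups did not overlap (495 to 572 untreated, 827 to 855.5 treated), as for 11.1% of all tested genes. The fit took 1 spread per gene over both lines, and IL6 was at 0 to 2.19 in treated CAOV3 cells. IL11 was without overlap in CAOV3 (539 to 614 untreated, 676 to 719 treated), as for 24.2% of all tested genes. CLCF1 was without overlap in both lines. It was at 358 to 376 untreated and 379 to 399 treated in CAOV3, and 347 to 422 and 425 to 446.5 in TOV21G. In untreated cells IL11 was higher in CAOV3 (573 ± 37.9 against 40.9 ± 6.53), and LIF (484 ± 7.95 against 1645 ± 58.7) and CTF1 (20.3 ± 2.11 against 139 ± 9.40) were higher in TOV21G.

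Of 14 receptor chains and JAK kinases, 2 rose in CAOV3, where 0.636% of all tested genes did, and 0 were called in TOV21G. JAK3, a JAK kinase best known from lymphocytes, had 103 ± 21.2 in untreated and 301 ± 32.8 in treated CAOV3 cells (a rise of 1.55 on the log2 scale, SE 0.14, limma adjusted p 0.000106), about as large a rise as that of SOCS3. In TOV21G JAK3 had 245.5 ± 27.7 and 218 ± 12.2, and the difference between the lines was called (-1.71, limma adjusted p 0.0032). IL6ST, the shared gp130 chain, rose in CAOV3 from 3109 ± 141 to 3702 ± 99.6 (log2 fold change 0.25, limma adjusted p 0.0056). The untreated lines differed most at OSMR, the oncostatin M receptor, with 2.09 ± 0.92 in CAOV3 and 3882 ± 32.4 in TOV21G. LIFR was at 8.82 ± 0.99 and 384 ± 43.3, and JAK1, the main kinase of gp130 receptors, at 2640 ± 160 and 196 ± 13.9. IL27RA was at 138 ± 19.0 and 1126 ± 75.4. Of the other STAT genes, STAT2, STAT5A, STAT5B and STAT6 were not called for ascites in either line. These differed between untreated lines, STAT2, STAT5A and STAT6 being higher in TOV21G and STAT5B lower.

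Among 15 other negative regulators of the pathway, 1 rose and 1 fell in CAOV3, where 1.73% of all tested genes were called. In TOV21G 0 were called, against 0.409% of all tested genes. The medians were -0.010 in CAOV3 and 0.024 in TOV21G. The gene that rose was SOCS2, a feedback inhibitor of growth hormone signalling, from 27.3 ± 4.43 to 59.7 ± 9.18 (log2 fold change 1.10, SE 0.13, limma adjusted p 0.00063). The lines differed in this response (-1.07, limma adjusted p 0.0236), and TOV21G held SOCS2 at 844 ± 44.2 and 863 ± 55.7. SOCS6 fell in CAOV3, 1851 ± 108 against 1612 ± 14.1 with ascites (log2 fold change -0.20, limma adjusted p 0.0375). SH2B3, an adaptor that restrains JAK2, was called for the difference between lines alone (0.28, limma adjusted p 0.0421): its log2 changes were -0.095 in CAOV3 and 0.19 in TOV21G. The JAK-STAT phosphatase genes PTPN1, PTPN2, PTPN6 and PTPN11 were not called in either line.

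Relatives of the 9 genes by protein family were for the most part not called. Of 15 PIM, AP-1, C/EBP and IkB genes, 1 rose in CAOV3, where 0.636% of all tested genes did. It was the AP-1 gene FOSL1, from 4747 ± 180.3 to 5831 ± 78.8 (log2 fold change 0.30, limma adjusted p 0.0107). FOSL1 had a similar estimate in TOV21G, 0.27, which just missed the threshold (limma adjusted p 0.0501), and its difference between lines was not called (-0.029, limma adjusted p 0.89). The list medians were 0.091 in CAOV3 and 0.038 in TOV21G. In untreated cells CEBPA was the counterpart of CEBPD, at 594 ± 50.8 in CAOV3 and 6.02 ± 1.71 in TOV21G. FOSB was higher in CAOV3 (124 ± 19.5 against 18.2 ± 2.58), and FOSL2 (2622 ± 48.3 against 12380 ± 435) and NFKBIA (1074 ± 61.5 against 3100 ± 141) were higher in TOV21G.

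Of 19 further genes widely described as STAT3 targets, 5 rose in CAOV3 (MUC1, ICAM1, IRF1, MCL1 and VEGFA) and 0 fell. Over all tested genes 0.636% were called as higher there. In TOV21G 0 were called, against 0.409% of all tested genes. The medians were 0.098 in CAOV3 and -0.011 in TOV21G. MUC1, a membrane mucin, went from 50.1 ± 4.69 to 122 ± 11.01 (log2 fold change 1.27, limma adjusted p 6.06e-05). ICAM1, an adhesion molecule also under NF-kB control, rose from 51.0 ± 6.31 to 116 ± 15.03 (1.18, limma adjusted p 0.000109). IRF1, an interferon-regulated transcription factor, rose from 540.3 ± 37.5 to 780 ± 21.6 (0.53, limma adjusted p 0.000859), and the survival gene MCL1 from 5254 ± 198 to 5996 ± 137 (0.19, limma adjusted p 0.0394). The difference between lines was called for MUC1 (-1.19, limma adjusted p 0.00445), VEGFA (-0.37, limma adjusted p 0.0093) and GADD45B (-0.59, limma adjusted p 0.0482). VEGFA had opposite signs in the lines, 0.19 in CAOV3 (limma adjusted p 0.0252) and -0.18 in TOV21G (0.0813, not called). MYC, CCND1, BCL2L1 and BIRC5, targets tied to growth and survival, were not called in either line. In untreated cells TWIST1 was at 0 in CAOV3 and at 536.5 ± 46.1 in TOV21G, and ICAM1 stood at 51.0 ± 6.31 and 1545 ± 116. BCL6 (686 ± 23.6 against 38.4 ± 4.42) and GADD45B (1460 ± 37.5 against 91.7 ± 6.90) were higher in CAOV3.

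Acute-phase genes, which hepatocytes switch on through STAT3 and C/EBP factors, had the largest changes of the lists. In CAOV3 5 of 8 tested genes rose (FGB, LBP, FGA, LRG1 and SERPINA1), where 0.636% of all tested genes did, and the list median was 1.43. In TOV21G 0 were called, against 0.409% of all tested genes, and the list median was -0.0021. The fibrinogen chain gene FGB went from 83.0 ± 19.4 to 1153 ± 125 and FGA from 35.2 ± 6.83 to 300.4 ± 53.8, log2 fold changes of 3.80 and 3.06. LBP rose from 2.97 ± 2.85 to 31.7 ± 5.12 (3.41) and LRG1 from 6.57 ± 4.31 to 18.7 ± 5.06 (1.51, limma adjusted p 0.0284). LBP passed the filter on low values only through the treated CAOV3 libraries, so its place among the tested genes depends on its rise. Of the 6 epithelial markers, 2 rose in CAOV3, KRT8 and KRT18 (log2 fold changes 0.29 and 0.33), which make up most of the epithelial sum of 157600 to 166900 after ascites. The other epithelial markers were not called: CDH1 had 425 ± 33.1 and 272 ± 8.43 (-0.64, limma adjusted p 0.44) and KRT19 a log2 difference of -0.057. The CDH1 groups did not overlap in CAOV3 (389 to 455 untreated, 266 to 281 treated), as for 24.2% of all tested genes. Its spread in the fit was taken over both lines, and TOV21G controls had 13.3 ± 6.07. The fibroblast marker sum was 5560 to 6419 in CAOV3 controls and 5328 to 5478 after ascites, without overlap. In TOV21G it was 12550 to 13080 and 11260 to 11690, also without overlap. LUM, the largest part of the CAOV3 sum, had 4196 ± 366 and 3647 ± 100 there and was not called (limma adjusted p 0.94). Of the 6 tested fibroblast markers 1 was called in CAOV3, where 1.73% of all tested genes were. It was COL1A2, which fell from 2.46 ± 0.44 to 0.36 ± 0.63 (log2 fold change -1.43, limma adjusted p 0.0046). In CAOV3 COL1A2 was close to the limit of counting in both groups. It passed the filter on low values only through TOV21G, with 10850 ± 308 in the controls. The part of these marker shifts in the results was not tested.

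**Figure D5:**
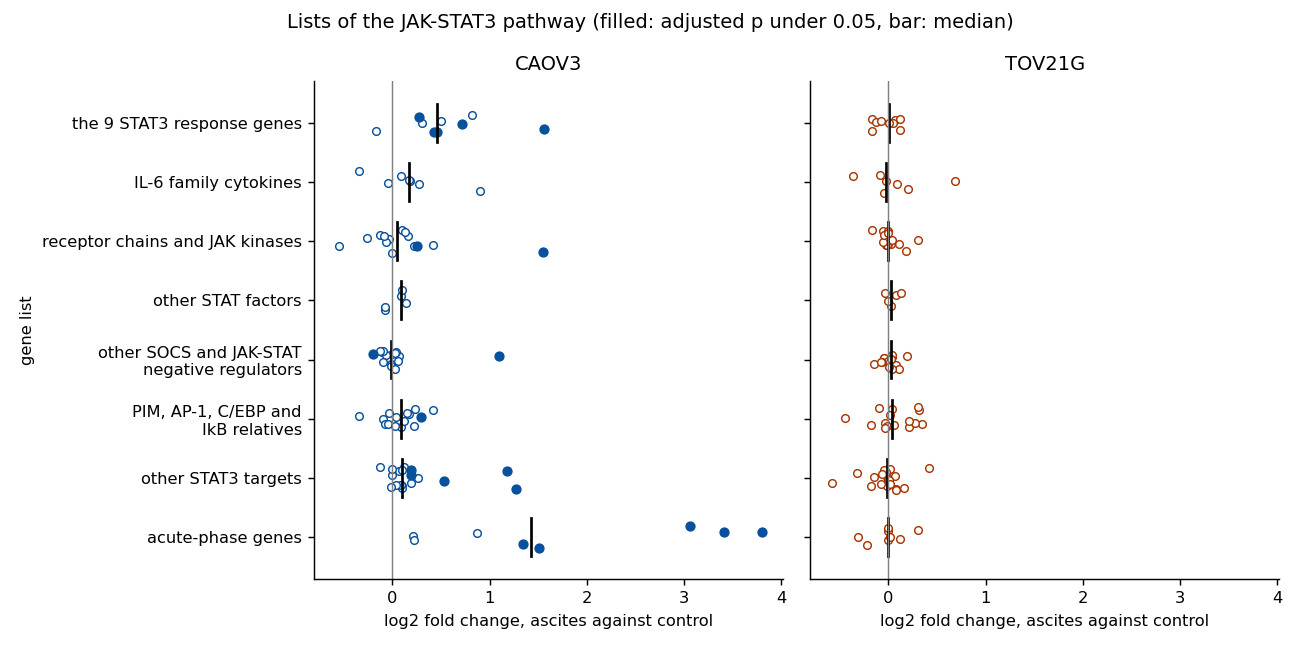
Log2 fold change, ascites against control (horizontal axes), of the 9 genes and of the tested genes of 7 pathway lists (rows) in CAOV3 and TOV21G; filled points have an adjusted p below 0.05 and black bars are list medians. Filled points lie to the right of 0 in CAOV3 apart from SOCS6, and TOV21G has none.

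Likeness to SOCS3 and STAT3 was measured by Pearson r of log2(value + 1) over the 12 libraries after the mean of each line was subtracted, among 11878 other genes with a mean value of at least 100. These correlations are descriptions: the libraries share a treatment and a line, and the CAOV3 response carries most of the variation. The genes most like SOCS3 were NNMT (r = 0.973), FGB (0.973), ZNF429 (0.972), ANGPTL4 (0.971) and FGA (0.969). Of these ZNF429 was nearly silent in CAOV3, at 0 in the 3 controls and 3.14 ± 0.12 after ascites. Most like STAT3 were TGM2 (0.987), FGA (0.970), FGB (0.970), CTSO (0.959) and PROS1 (0.951). TGM2, transglutaminase 2, had 3018 ± 72.0 in untreated and 4566 ± 237 in treated CAOV3 cells (0.60 on the log2 scale, limma adjusted p 0.000109) and 12690 ± 599 and 13710 ± 974 in TOV21G (0.11, limma adjusted p 0.59). Among the 9 genes themselves, STAT3 ran closest to CEBPD (0.962), SOCS3 (0.944) and IL4R (0.910), SOCS3 to JUNB (0.947), and CEBPD to IL4R (0.960). PIM1 was apart from all of them, with r between -0.261 and 0.123.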

How the data were processed

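Each of the 12 libraries came with 1 table, deposited by the authors as a normalised signal per gene: read counts divided by a size factor, as the values themselves show. Trim Galore, cutadapt, STAR, HTSeq and DESeq are named in the submitters' processing notes; versions, genome build, annotation and strand setting are not given in the sources used here. In every library 100% of values came out as whole reads within 0.01 reads when divided by the step of that library. Genes with a value of at least 10 in at least 3 libraries were tested with limma 3.58.1 (R 4.3.3) on log2(value + 1), two-sided. The 12 libraries were in 1 fit, with 1 spread per gene over both lines and Benjamini-Hochberg adjustment over all tested genes. Adding 1 before the log understates changes of low genes. Alternatives were pseudocounts 0.5 and 5, no filter, TMM scaling, edgeR 4.0.16 and DESeq2 1.42.0 on the recovered reads, a replicate block, each line alone, and leaving out libraries. The fit was tested on simulated data. Recovered reads called 511 genes in CAOV3 with edgeR and 507 with DESeq2, against 305 by limma. Symbols were matched for 19223 of 19251 identifiers, 19087 from a gene name table and 136 from GENCODE 29, which also gave positions and exon lengths. All 9 genes are named; of the pathway and marker lists, the called genes (the 4 largest where more) and others picked after their values were seen. The genes and lists were chosen with earlier results of these data known, and their directions are not independent evidence. Some genes of the lists are not reported here.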

Additional observations from a re-analysis of the deposited data

Results flagged for a closer look

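Ascites responses differed between the lines, by the interaction test of limma, at 3 genes: SOCS3 (-1.73 on the log2 scale, TOV21G minus CAOV3), JUNB (-0.54) and STAT3 (-0.36). In CAOV3 each was higher in 3 of 3 treated libraries than in any control, as were 11.4% of all tested genes. In TOV21G the treated and untreated libraries overlapped. Over all tested genes, 0.545% were called for the difference between lines. The cause of the difference was not tested.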

How the results depend on the processing

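In CAOV3 the count of genes called out of 9 was 4 to 6 over the alternatives and 4 to 5 when 1 library was left out, and in TOV21G it was 0 throughout. BCL3 was gained in CAOV3 with a pseudocount of 5, TMM, edgeR and DESeq2 (adjusted p 0.0493, 0.0437, 0.0195 and 0.0076). For the difference between lines 3 genes were called, 1 under the replicate block and 1 to 4 when 1 library was left out; CEBPD was gained with a pseudocount of 5, TMM, edgeR and DESeq2. Same-numbered libraries did not deviate together (r from -0.417 to 0.073), and not every library was closest to its own number. With 3 libraries per group, these correlations do not settle whether same-numbered libraries were paired. With the replicate block the limma adjusted p for the difference was 0.0131 for SOCS3, 0.18 for STAT3 and 0.23 for JUNB. For IL4R in CAOV3 it was 0.0998. The baseline count was 8, and 7 to 8 with 1 library left out. Signs turned, always for uncalled values, when 1 library was left out: the log2 change in TOV21G ran from -0.22 to 0.34 for SOCS1, from -0.039 to 0.033 for IL4R and from -0.012 to 0.11 for BCL3, the PIM1 difference from -0.14 to 0.12 and the JUNB baseline from -0.021 to 0.088. After the data were seen, pairs of TOV21G libraries were left out: without control 1 and ascites 2, BCL3 was gained in CAOV3 (adjusted p 0.047), IL4R in TOV21G was -0.023, the PIM1 difference -0.021, the JUNB baseline -0.0053 and SOCS1 was lost at baseline (adjusted p 0.0811), and without control 2 and ascites 3, SOCS1 in TOV21G was -0.17. Over all genes limma's 305, 72 and 96 calls for CAOV3, TOV21G and the difference became 116, 13 and 9 with the replicate block. DESeq2 gave 507, 151 and 210, edgeR 511, 114 and 148. TOV21G had 8 calls with its 6 libraries fitted alone, and CAOV3 had 620 without TOV21G control 1 and ascites 2. With 1 library left out the counts ran from 162 to 345, 24 to 137 and 35 to 147. The cause was not tested. Depth limits SOCS1 most, with 3 to 22 reads per library.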
